A study of Mus musculus with 19 samples.

Results

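The 10 genes described here encode amino acid transporters: Slc7a7, the heavy chain Slc3a2, and Slc7a6, Slc7a5, Slc7a8, Slc7a11, Slc7a1, Slc7a2, Slc38a1 and Slc38a2. They were set by name around Slc7a7, which was itself chosen by its low values in Aid-Cre tumours on these same arrays. Its values in that group are therefore given as a description, without a test. Probe sets annotated to exactly 1 of these symbols were used, with the highest mean where a gene had several. All 10 genes were measured, on 11 probe sets, among 22180 genes in all.

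Whole spleens of mice that conditionally express HGAL, a human germinal centre gene placed in the Rosa26 locus and switched on by a Cre recombinase, were compared on 19 Affymetrix arrays of total RNA. There were 4 tumour-bearing spleens of Rosa26-HGAL+Aid-Cre mice, 5 of Rosa26-HGAL+Mb1-Cre mice and 4 of Rosa26-HGAL+Sca1-Cre mice, with 3 pre-tumoral spleens of Rosa26-HGAL+Sca1-Cre mice and 3 spleens of wild-type mice. Aid-Cre is active in germinal centre B cells, Mb1-Cre from early B cells onwards, and Sca1-Cre in blood stem and progenitor cells. The wild-type mice carry neither HGAL nor Cre by their label, so that an effect of HGAL and an effect of Cre cannot be told apart, and the sample codes give each Cre a line name of its own, so that driver and mouse line cannot be told apart either. All mice were kept in a conventional facility with exposure to common pathogens, and the labels used here name no strain, sex or age.

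Most Slc7 transporters work as pairs. A light chain of the Slc7 family carries the amino acids, and the heavy chain Slc3a2 (CD98, 4F2hc) brings it to the cell surface. Slc7a7 (y+LAT1) and Slc7a6 (y+LAT2) are light chains that exchange cationic amino acids such as arginine for neutral ones. In humans, loss of SLC7A7 causes lysinuric protein intolerance, in which macrophages are among the affected cells. The splenic red pulp is rich in macrophages, so a whole spleen holds cells in which this transporter is used.

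Promoter windows of the genes are shown because Slc7a7 and Slc7a11 were the members in which the searched amino acid response motif was found. The windows come from RefSeq, build GRCm38.p6, and run from 250 bases before to 50 bases after a transcript start. A window was held for 7 of the 10 genes, 13 windows in all; Slc7a5, Slc7a2 and Slc38a1 had no entry. The motif TGATGNAA, where N is any base, is bound by ATF4 with C/EBP partners, the factors of the amino acid response. It was searched on both strands and was found in 3.97% of 32851 promoter windows of the same length. Both sequences below read 5′ to 3′ on the gene's strand, and capitals mark the matches. The Slc7a7 window lies at chr14:54417895-54418194, minus strand, and the Slc7a11 window at chr3:50443564-50443863, minus strand.
Slc7a7: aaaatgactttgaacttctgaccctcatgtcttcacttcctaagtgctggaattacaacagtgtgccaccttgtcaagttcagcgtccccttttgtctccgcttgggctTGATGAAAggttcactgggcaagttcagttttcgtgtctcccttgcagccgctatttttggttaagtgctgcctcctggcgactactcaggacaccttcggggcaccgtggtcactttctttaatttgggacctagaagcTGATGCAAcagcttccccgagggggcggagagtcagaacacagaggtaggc
Slc7a11: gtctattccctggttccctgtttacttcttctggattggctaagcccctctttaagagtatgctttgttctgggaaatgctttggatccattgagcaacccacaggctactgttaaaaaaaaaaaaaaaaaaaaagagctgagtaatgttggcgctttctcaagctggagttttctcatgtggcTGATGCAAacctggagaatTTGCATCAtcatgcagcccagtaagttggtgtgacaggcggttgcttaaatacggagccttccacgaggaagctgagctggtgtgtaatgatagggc
The second match in the Slc7a7 window spans the transcript start and is counted again in an overlapping window of that gene. Each window held 2 matches. The antioxidant element TGACNNNGC, found in 12.4% of all windows, occurred in windows of 3 members (Slc7a1, Slc7a6 and Slc38a2). The E-box CACGTG, found in 7.15% of all windows, occurred in none of the 13. A match describes these letters and does not show a binding site.

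The values are log2 intensities after robust multi-array averaging, so that a difference of 1 is a doubling of signal. Array medians lay between 5.23 and 5.40, and the 40th percentile of each array, taken as near background, between 4.72 and 4.90. The spleens held the RNA of B cells, T cells and red pulp macrophages: in wild-type spleens the group mean was 12.17 for Cd79a, 10.24 for Cd3e, 7.77 for Spic and 8.89 for Csf1r. Cell mixtures differed between arrays. The mean of 19 macrophage markers, relative to its wild-type mean, ranged from -0.31 to 0.82 in Aid-Cre tumours, -0.01 to 1.44 in Mb1-Cre tumours, -0.58 to 0.71 in Sca1-Cre tumours, -0.07 to 0.44 in pre-tumoral spleens and -0.34 to 0.37 in wild type. The mean of 12 exocrine pancreas markers stood apart on 2 arrays, at 2.51 in Mb1-Cre tumour replicate 2 and at 0.76 in wild-type replicate 2 (relative to wild type), and each group difference below was also computed without each of these arrays. Differences were tested with limma across all 22180 genes, with Benjamini-Hochberg adjustment over all of them and calls at an adjusted p under 0.05.

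Slc7a7, the y+LAT1 light chain, was lower in every Aid-Cre tumour spleen than in any other spleen. Its level was 7.02, 7.05, 7.04 and 6.80 in Aid-Cre tumours. It was 7.90, 8.11, 7.81, 7.75 and 7.98 in Mb1-Cre tumours. Sca1-Cre tumours gave 7.65, 8.24, 8.18 and 8.24, and pre-tumoral spleens 8.07, 7.71 and 8.25, against 7.81, 7.63 and 7.41 in wild type. The 4 Aid-Cre arrays lie within a narrow band, and the other 15 arrays all lie above it. The nearest of those 15 was 0.364 above the highest Aid-Cre array, the widest such gap among the 11 genes (0.0496% of those measured) with every Aid-Cre array below all others. Slc7a7 was chosen for these low values, so the rank of its gap describes them and gives them no support.

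**Figure D1:**
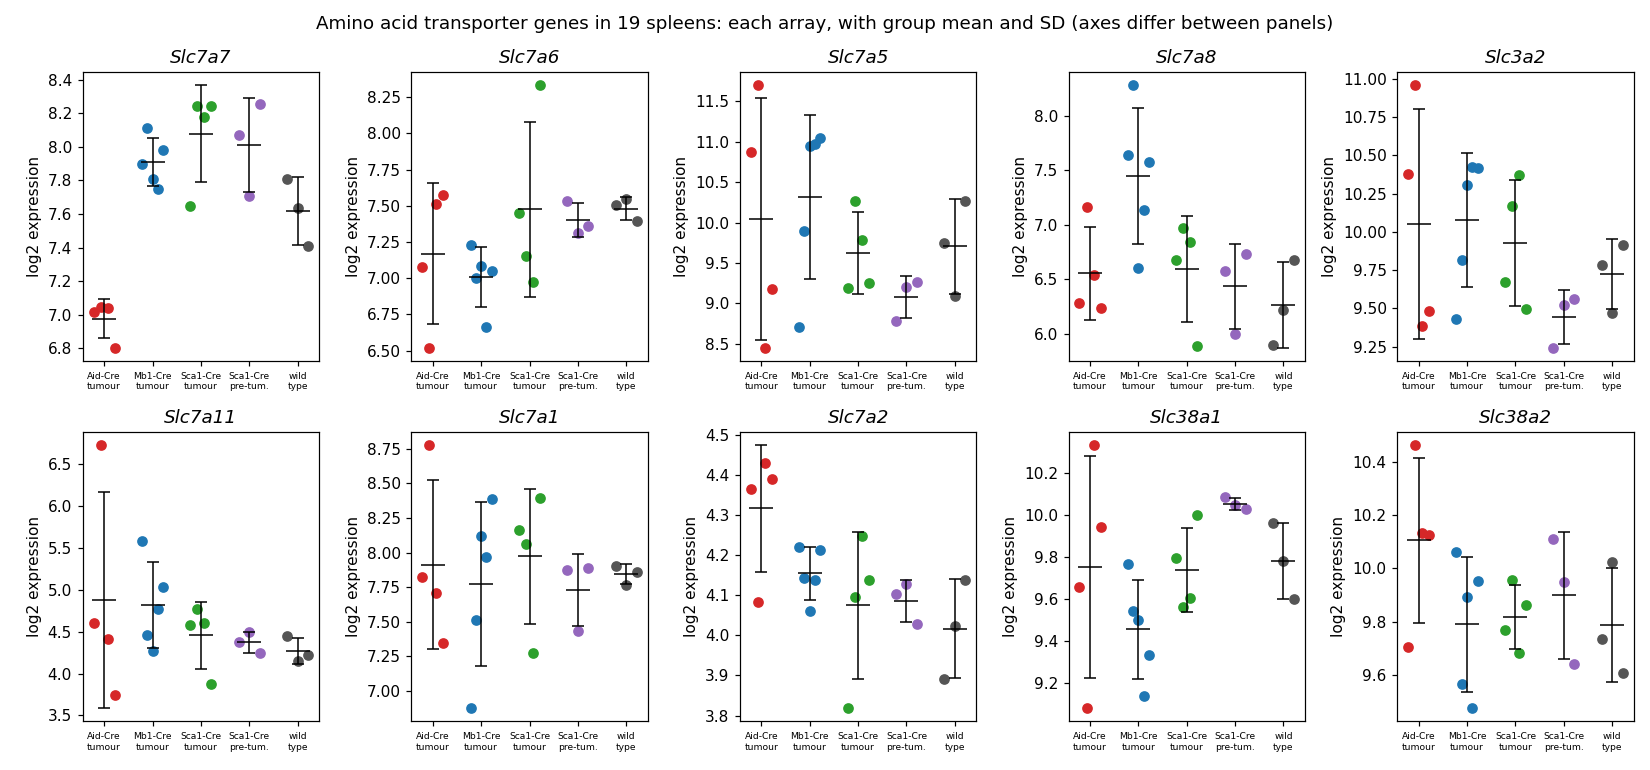
Log2 level of each of the 10 transporter genes (vertical axes) on every array, with 1 point per spleen and a bar at each group mean, for Aid-Cre, Mb1-Cre and Sca1-Cre tumours, pre-tumoral spleens and wild type. In the Slc7a7 panel the 4 Aid-Cre tumours, between 6.80 and 7.05, lie below all other spleens; in the other panels the Aid-Cre arrays overlap the wild type.

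The Slc7a7 mean in Aid-Cre tumours was 6.98 ± 0.12 (SD, n = 4), against 7.91 ± 0.14 in Mb1-Cre tumours (n = 5), 8.08 ± 0.29 in Sca1-Cre tumours (n = 4) and 7.62 ± 0.20 in wild type (n = 3). Aid-Cre minus wild type was -0.64 ± 0.15 (SE), a 1.56-fold lower signal. Aid-Cre minus Mb1-Cre was -0.93 ± 0.14, 1.91-fold lower, and Aid-Cre minus Sca1-Cre was -1.10 ± 0.14, 2.15-fold lower. These differences chose the gene and are not tested. In whole spleen, fewer cells that express a gene and less of its RNA per cell cannot be told apart.

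Myeloid marker lists gave these values beside Slc7a7, with 0 markers called in any of the 3 Aid-Cre comparisons. Of the 19 macrophage markers, 15 were higher in Aid-Cre tumours than in wild type, 0 were higher than in Mb1-Cre tumours (median difference -0.51) and 9 higher than in Sca1-Cre tumours. Of the 8 monocyte markers, 7 were lower by group mean in Aid-Cre tumours in each comparison (with wild type, with Mb1-Cre and with Sca1-Cre), with median differences of -0.21, -0.80 and -0.50. The spleens differed: the mean of these markers was 0.39, 0.42, -0.36 and -1.02 in Aid-Cre tumours, against -0.12 to 0.18 in wild type. It ranged from 0.40 to 0.90 in Mb1-Cre tumours and from -0.45 to 1.00 in Sca1-Cre tumours. The mean of 5 dendritic cell markers lay between -0.52 and -0.13 in Aid-Cre tumours, below the range of -0.06 to 0.04 in wild type. It ranged from -0.46 to 0.19 in Mb1-Cre tumours, -0.24 to 0.14 in Sca1-Cre tumours and -0.01 to 0.03 in pre-tumoral spleens. Of these 5 markers, 2 were higher in Aid-Cre tumours than in wild type. B cell markers (11 measured) ranged from -3.60 to 0.22 in Aid-Cre tumours, from -2.12 to -0.50 in Mb1-Cre tumours, from -2.18 to 0.02 in Sca1-Cre tumours and from -0.28 to 0.10 in pre-tumoral spleens, against -0.25 to 0.24 in wild type. The part of the cell mixture in the Slc7a7 values was not tested.

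By group mean, Slc7a7 was highest in Sca1-Cre tumours, then in pre-tumoral spleens (8.01 ± 0.28, n = 3), Mb1-Cre tumours, wild type and Aid-Cre tumours. The ranges of neighbouring groups in this order overlapped, except between wild type and Aid-Cre. In the comparisons that hold no Aid-Cre array, no Slc7a7 difference passed the test. The low Aid-Cre level was read relative to these other groups, so these comparisons are not free of the choice. Sca1-Cre tumours minus wild type was 0.46 ± 0.15 (limma adjusted p = 0.268), and pre-tumoral spleens minus wild type 0.39 ± 0.17 (limma adjusted p = 0.884). Mb1-Cre tumours minus wild type was 0.29 ± 0.15 (limma adjusted p = 0.468). Within the Sca1-Cre line, tumours minus pre-tumoral spleens gave 0.07 ± 0.15 (limma adjusted p = 0.951), with a 95% interval from -0.26 to 0.40. Over all 13 tumours the low Aid-Cre values and the higher values of the other tumours gave a mean difference from wild type of 0.04 ± 0.13, given without a test since it holds the Aid-Cre arrays.

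Slc7a6, the other y+L light chain, overlapped between Aid-Cre tumours and all other groups. Its level was 7.07, 6.52, 7.51 and 7.57 in Aid-Cre tumours, and 7.23, 7.003, 7.09, 6.66 and 7.05 in Mb1-Cre tumours. Sca1-Cre tumours gave 7.45, 7.15, 6.97 and 8.33, and pre-tumoral spleens 7.53, 7.31 and 7.36, against 7.50, 7.54 and 7.39 in wild type. The Aid-Cre range holds the whole wild-type range. All 5 Mb1-Cre tumours lay below all 3 wild-type spleens, which 5.38% of all genes did, and the difference of -0.47 ± 0.26 did not pass the test (limma adjusted p = 0.502).

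Slc3a2, the heavy chain that Slc7a7, Slc7a6, Slc7a5, Slc7a8 and Slc7a11 all need, spread widely within the tumour groups. Its level was 10.38, 10.96, 9.39 and 9.48 in Aid-Cre tumours, and 9.43, 9.81, 10.31, 10.42 and 10.41 in Mb1-Cre tumours. Sca1-Cre tumours gave 9.67, 10.17, 10.37 and 9.49, and pre-tumoral spleens 9.24, 9.53 and 9.56, against 9.79, 9.47 and 9.91 in wild type. All groups overlapped. Aid-Cre minus wild type was 0.33 ± 0.34 (limma adjusted p = 0.847), with a 95% interval from -0.39 to 1.04.

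Slc7a5 (LAT1), the light chain that takes up leucine and other large neutral amino acids in growing cells, spread still further. It stood at 10.87, 11.70, 8.45 and 9.18 in Aid-Cre tumours, and 8.71, 9.89, 10.95, 10.98 and 11.04 in Mb1-Cre tumours. Sca1-Cre tumours gave 9.19, 10.27, 9.78 and 9.25, and pre-tumoral spleens 8.78, 9.20 and 9.27, against 9.75, 9.10 and 10.26 in wild type. Within the Aid-Cre and the Mb1-Cre tumours some spleens were above every wild-type spleen, and 1 spleen of each group was below all of them. No comparison passed the test, and the intervals are wide: Aid-Cre minus wild type was 0.35 (95% interval -1.06 to 1.75), Mb1-Cre minus wild type 0.61 (-0.74 to 1.96) and pre-tumoral minus wild type -0.62 (-2.13 to 0.89).

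Slc7a5 and its heavy chain moved together from spleen to spleen. Over the 19 arrays Pearson's r was 0.943 and Spearman's rho 0.960 (permutation tests, adjusted p = 0.00015 for r and 0.00045 for rho over 45 gene pairs, each from the smallest p that 100000 permutations can give), and r was 0.924 without the 2 arrays farthest from the median of Slc7a5. Taken as deviations from the group means, r was 0.951, so the relation was also present within groups. Both genes also followed the 9 measured erythroid markers. The r with the mean of these markers was 0.905 for Slc7a5 and 0.865 for Slc3a2 (permutation test, adjusted p = 0.0002 over 100 relations), or 0.911 and 0.889 as deviations from group means. With the proliferation markers r was 0.862 for Slc7a5 and 0.838 for Slc3a2. Other cell types moved with the pair as well: for Slc7a5 and Slc3a2, r was -0.858 and -0.755 with the T cell markers, -0.681 and -0.797 with the B cell markers, 0.718 and 0.731 with the neutrophil markers and -0.690 and -0.616 with the dendritic cell markers, with adjusted permutation p between 0.0002 and 0.0209. The erythroid marker mean ranged from -2.04 to 1.16 in Aid-Cre tumours, -2.61 to 1.31 in Mb1-Cre tumours, -1.89 to 0.51 in Sca1-Cre tumours and -3.31 to -0.94 in pre-tumoral spleens, against -0.41 to 0.33 in wild type. The part of these cell types in the levels of both genes was not tested.

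**Figure D2:**
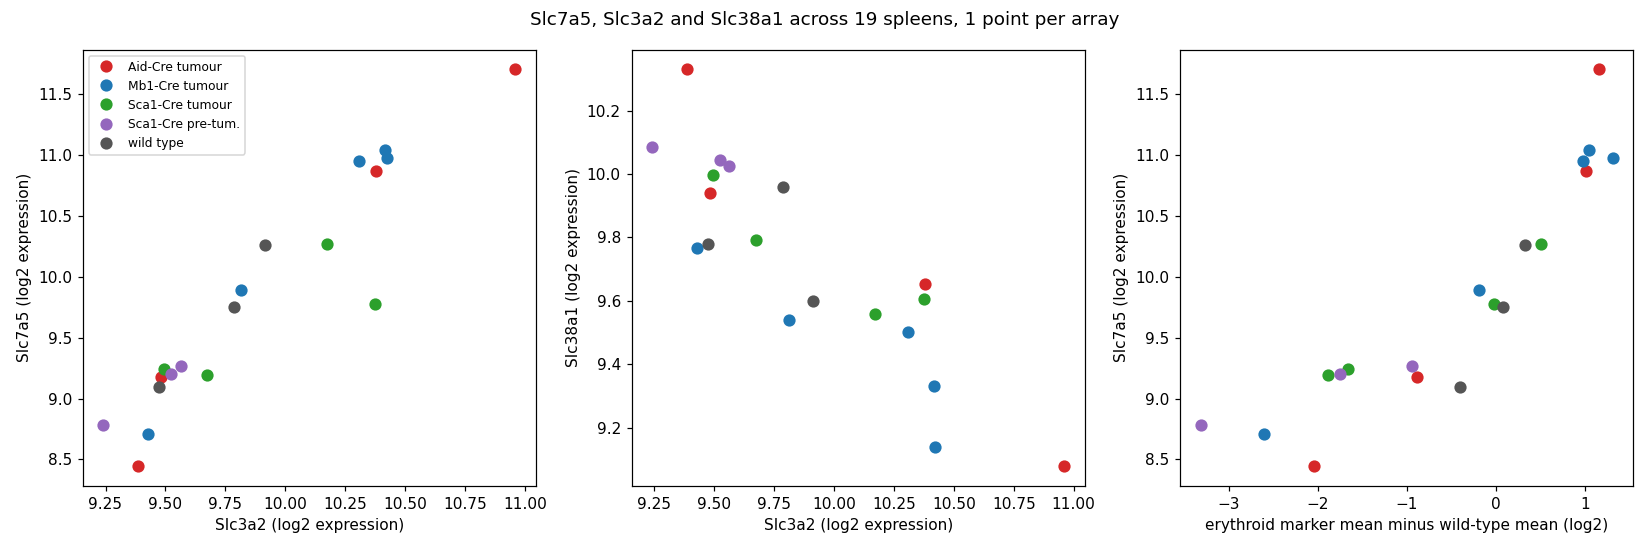
Scatter plots of log2 levels on the 19 spleens, with 1 point per array coloured by group: Slc7a5 against Slc3a2, Slc38a1 against Slc3a2, and Slc7a5 against the mean of the erythroid markers relative to wild type. Slc7a5 climbs with Slc3a2 and with the markers (r = 0.943 and 0.905) and Slc38a1 runs down as Slc3a2 climbs (r = -0.872), with Aid-Cre tumours at both ends of each.

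Slc7a8 (LAT2), the other light chain for large neutral amino acids, had its highest group mean in Mb1-Cre tumours. Its level was 6.28, 7.16, 6.54 and 6.24 in Aid-Cre tumours, and 7.64, 8.28, 6.61, 7.14 and 7.58 in Mb1-Cre tumours. Sca1-Cre tumours gave 6.67, 6.98, 6.84 and 5.89, and pre-tumoral spleens 6.58, 5.997 and 6.73, against 5.90, 6.22 and 6.68 in wild type. Of the Mb1-Cre tumours 4 lay above every wild-type spleen, and replicate 3 lay within the wild-type range. The highest value, 8.28, was that of replicate 2, the Mb1-Cre array on which the pancreas markers stood apart. Mb1-Cre minus wild type was 1.18 ± 0.34, a 2.27-fold higher signal, which did not pass after adjustment (limma adjusted p = 0.232). Mb1-Cre minus Sca1-Cre was 0.85 ± 0.31 (limma adjusted p = 0.178), and Aid-Cre minus Mb1-Cre was -0.89 ± 0.31 (limma adjusted p = 0.439).

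Slc7a8 followed the macrophage markers across spleens. Over the 19 arrays r was 0.909 and rho 0.926 (permutation test, adjusted p = 0.0002 for r over 100 relations), 0.830 without the 2 arrays farthest from the median of Slc7a8, and 0.903 as deviations from group means. In Mb1-Cre tumours 18 of the 19 macrophage markers were above wild type, 8 of them at an unadjusted p under 0.05 (11.3% of all genes) and 0 after adjustment (0% of all genes). For Slc7a7, the deviations from group means and those of the marker mean had r = 0.225. The part of the macrophage share in the Slc7a8 values was not tested further.

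**Figure D3:**
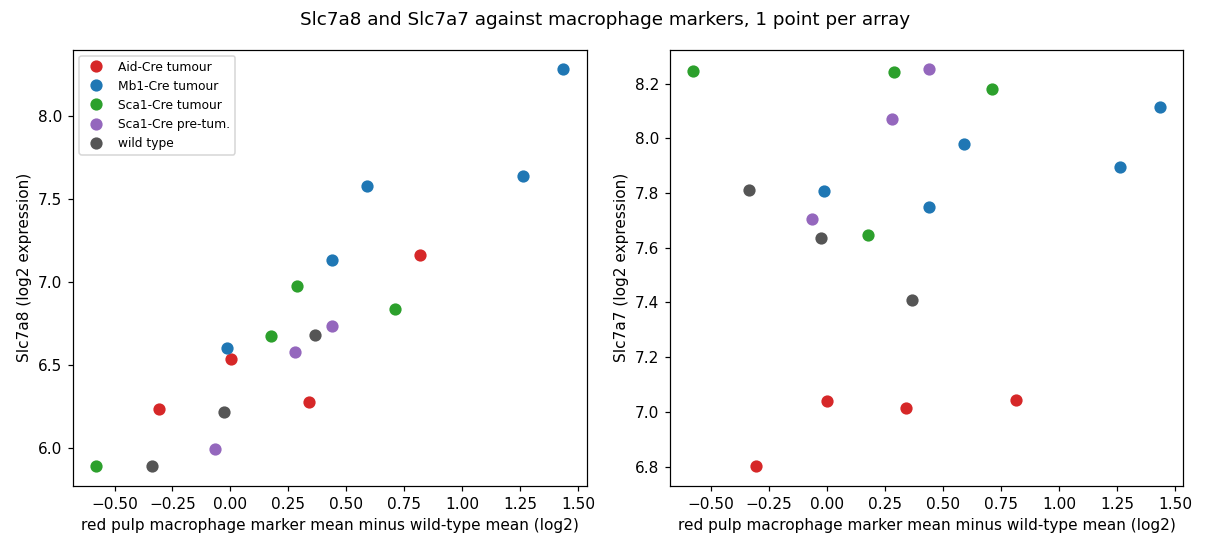
Slc7a8 and Slc7a7 levels (log2, vertical axes) of the 19 spleens against the mean of 19 macrophage markers relative to wild type (log2, horizontal axes), coloured by group. Slc7a8 climbs with the markers (r = 0.909), and the 4 Aid-Cre tumours, the group Slc7a7 was chosen on, lie lowest in Slc7a7 at marker means from -0.31 to 0.82.

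Slc7a7 and Slc7a8 lie on chromosome 14, with 14 tested genes between them in the gene order of GRCm38.p6. Of the 20 tested genes nearest to Slc7a7, 10 on each side, 13 were lower in Aid-Cre tumours than in wild type, with a median difference of -0.14 and a range from -0.74 to 0.72. Both ends of this range were T cell receptor segments, Trav12-2 and Trav3-4, and further segments are among the 20. Trav3-4 had a mean of 3.90 over all arrays, under the near-background level. All 11 measured T cell markers were lower by group mean in Aid-Cre tumours than in wild type. Their mean was -0.93 and -1.76 in replicates 1 and 2, and 0.37 and 0.05 in replicates 3 and 4, against -0.32 to 0.44 in wild type. The part of the T cell share in the values of the neighbouring genes was not tested. None of the 20 passed the limma test in any Aid-Cre comparison. Unadjusted p was under 0.05 for 0 of them against wild type, 2 against Mb1-Cre tumours and 3 against Sca1-Cre tumours, where all genes gave 8.30%, 8.76% and 13.6%. Mrpl52, a mitochondrial ribosomal protein gene next to Slc7a7 counted in both tumour comparisons and named after its values were seen, was at -0.39 ± 0.19 against wild type, -0.36 ± 0.17 against Mb1-Cre tumours and -0.62 ± 0.18 against Sca1-Cre tumours (limma adjusted p = 0.625, 0.567 and 0.151). The neighbours lay on both sides of 0 in each of these comparisons.

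Slc7a11 (xCT) exchanges cystine for glutamate and feeds glutathione synthesis. Its level was 4.61, 6.73, 4.42 and 3.75 in Aid-Cre tumours, and 5.58, 4.46, 4.27, 4.77 and 5.03 in Mb1-Cre tumours. Sca1-Cre tumours gave 4.59, 4.77, 4.61 and 3.87, and pre-tumoral spleens 4.37, 4.50 and 4.25, against 4.45, 4.15 and 4.22 in wild type. Most of these values lie near background, and Aid-Cre replicate 2 stands clear of all others. In the same spleen the mean of 22 genes of the ATF4 amino acid response was 0.93 above wild type, while in the other Aid-Cre tumours it lay between -0.21 and 0.12. Aid-Cre minus wild type was 0.60 ± 0.49 for Slc7a11 (limma adjusted p = 0.794). A second Slc7a11 probe set, with a lower mean of 2.97, stayed between 2.81 and 3.17 on all arrays.

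Slc7a1 and Slc7a2 are carriers of arginine and lysine that need no heavy chain. Slc7a1 (CAT1) stood at 7.83, 8.78, 7.71 and 7.35 in Aid-Cre tumours, and 6.88, 7.51, 8.12, 7.97 and 8.39 in Mb1-Cre tumours. Sca1-Cre tumours gave 8.16, 8.06, 7.27 and 8.40, and pre-tumoral spleens 7.88, 7.43 and 7.89, against 7.90, 7.76 and 7.86 in wild type. The 3 wild-type values sat close together, inside the range of every tumour group. Aid-Cre minus wild type was 0.07 ± 0.35, with a 95% interval from -0.67 to 0.81. Slc7a2 (CAT2), the carrier that activated macrophages use, was at or below 4.43 on every array, under the near-background level. Its difference of 0.30 ± 0.10 between Aid-Cre tumours and wild type (limma adjusted p = 0.446) is between values of that low range.

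Slc38a1 and Slc38a2 carry glutamine into cells with sodium. Slc38a1 (SNAT1) stood at 9.65, 9.08, 10.33 and 9.94 in Aid-Cre tumours, 9.77, 9.54, 9.50, 9.14 and 9.33 in Mb1-Cre tumours. In Sca1-Cre tumours it stood at 9.79, 9.56, 9.60 and 9.997. Its pre-tumoral values of 10.08, 10.04 and 10.03 were all above the wild-type values of 9.96, 9.78 and 9.60. The pre-tumoral spleens were also above all 4 Sca1-Cre tumours. Of all genes, 8.35% had pre-tumoral spleens apart above wild type and 4.51% had Sca1-Cre tumours apart below pre-tumoral spleens. Neither difference passed the limma test: pre-tumoral minus wild type was 0.27 ± 0.23 (adjusted p = 0.918), and Sca1-Cre tumours minus pre-tumoral spleens was -0.31 ± 0.21 (adjusted p = 0.851). T cell markers were 0.49 to 0.79 above the wild-type mean in the pre-tumoral spleens, against -0.32 to 0.44 in wild type. Erythroid markers lay at -3.31 to -0.94 there, against -0.41 to 0.33 in wild type. Proliferation markers lay at -2.46 to -0.79, against -0.43 to 0.28 in wild type. The part of any of these marker groups in the Slc38a1 values was not tested.

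Slc38a2 (SNAT2), which is induced when amino acids run short, had the highest mean in Aid-Cre tumours. It stood at 9.70, 10.46, 10.13 and 10.12 there, and 10.06, 9.57, 9.89, 9.47 and 9.95 in Mb1-Cre tumours. Sca1-Cre tumours gave 9.77, 9.96, 9.68 and 9.86, and pre-tumoral spleens 10.11, 9.95 and 9.64, against 9.74, 10.02 and 9.61 in wild type. The Aid-Cre and wild-type ranges overlap, with 3 Aid-Cre tumours above all wild-type spleens. Aid-Cre minus wild type was 0.32 ± 0.17 (limma adjusted p = 0.665).

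Slc38a1 ran opposite to the Slc7a5 and Slc3a2 pair. Over the 19 arrays its r was -0.880 with Slc7a5 and -0.872 with Slc3a2 (permutation test, adjusted p = 0.00015 each), and rho was -0.832 and -0.837 (adjusted permutation p = 0.000562 each). Without the 2 farthest arrays r was -0.815 and -0.808, and as deviations from group means -0.879 and -0.892. Slc7a6 ran with Slc38a1 (r = 0.772) and against Slc3a2 (r = -0.772), both with an adjusted permutation p of 0.00108. Slc38a1 had r = -0.786 with the erythroid markers, -0.834 with the neutrophil markers and 0.758 with the T cell markers (adjusted permutation p = 0.000556, 0.000429 and 0.0015 over 100 relations), with rho of -0.833, -0.851 and 0.725. With the proliferation and B cell markers its r was -0.788 and 0.765 (adjusted permutation p = 0.0007 and 0.00109), with rho of -0.795 and 0.691. The cell mixture thus varies along the same arrays, and its part in the relations between these genes was not tested. The relation of Slc7a1 with Slc7a5 (r = 0.575, adjusted permutation p = 0.040) fell to 0.337 without the 2 farthest arrays. Its rho was 0.546 (adjusted permutation p = 0.063), and r was 0.654 as deviations from group means. That of Slc7a6 with Slc7a11 (r = -0.682, adjusted permutation p = 0.024) became -0.479 without the 2 farthest arrays. Here rho was -0.782 (adjusted permutation p = 0.00108), and r was -0.638 as deviations from group means.

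Counted over the members, no difference passed the limma test in any of the 9 comparisons, with Slc7a7 left out of those it was chosen on. Against wild type, 0 of 9 members were called for all tumours together and 0 of 9 for Aid-Cre tumours, where 0.018% of all genes were called in each. It was 0 of 10 for Mb1-Cre tumours (0% of all genes), 0 of 10 for Sca1-Cre tumours (0.0406%) and 0 of 10 for pre-tumoral spleens (0.00451%). Between Sca1-Cre tumours and pre-tumoral spleens it was 0 of 10 (0% of all genes). Among the tumours it was 0 of 9 for Aid-Cre against Mb1-Cre (0.0451%), 0 of 9 for Aid-Cre against Sca1-Cre (0.0451%) and 0 of 10 for Mb1-Cre against Sca1-Cre (0.0406%). An F-test over the 3 tumour groups called 0 of 9 members and 0.0496% of all genes. Calls were rare across the whole array, so the members' count of 0 does not set them apart.

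At an unadjusted p under 0.05, 1 member passed against wild type in Aid-Cre tumours (Slc7a2; 8.30% of all genes), in Mb1-Cre tumours (Slc7a8; 11.3%), in Sca1-Cre tumours (Slc7a7; 11.4%) and in pre-tumoral spleens (Slc7a7; 5.47%), and 0 for all tumours together (8.93%). Sca1-Cre tumours against pre-tumoral spleens gave 0 (5.34%). Aid-Cre against Mb1-Cre gave Slc7a8 (8.76%), Aid-Cre against Sca1-Cre gave Slc7a2 (13.6%) and Mb1-Cre against Sca1-Cre gave Slc7a8 (17.6%). These shares of the members are near those of all genes. In Aid-Cre tumours 7 of the 9 members other than Slc7a7 were above wild type, with a median difference of 0.30, against 0.01 over all genes. Aid-Cre replicate 2 carries this: without it 5 of the 9 were above wild type, with a median of 0.02, and the difference was -0.21 for Slc7a5, -0.22 for Slc7a1, -0.02 for Slc7a11 and 0.02 for Slc3a2.

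**Figure D4:**
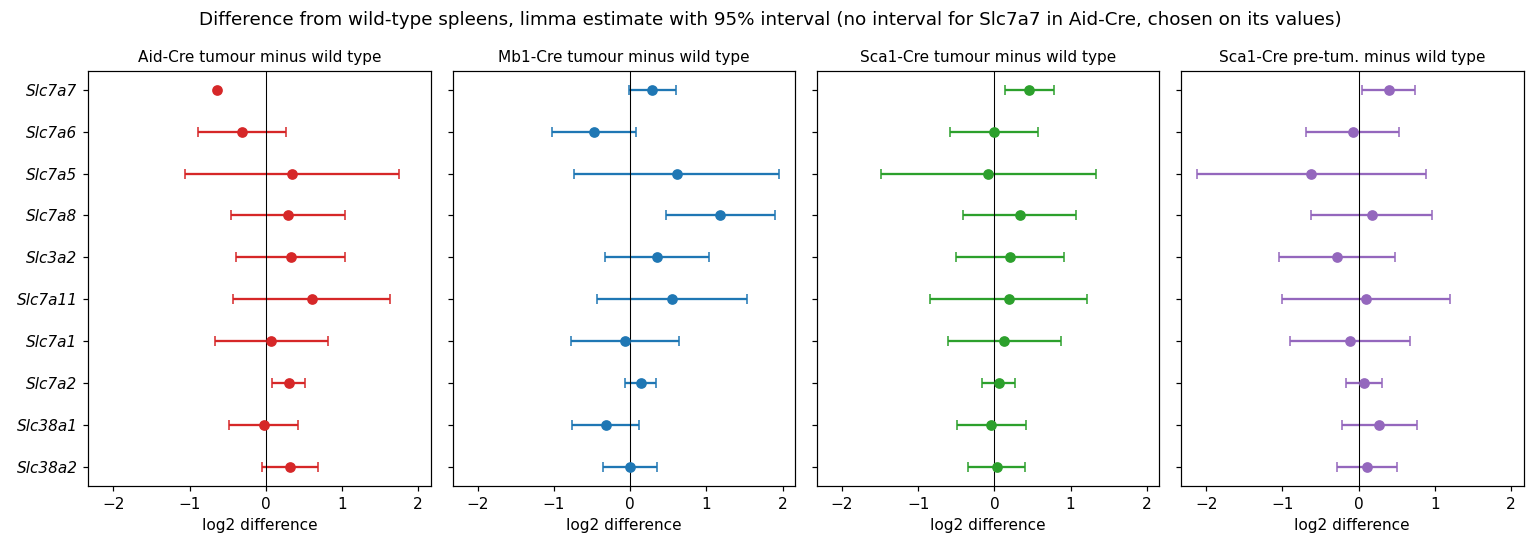
Difference from wild type (log2, horizontal axis) of each of the 10 genes in Aid-Cre, Mb1-Cre and Sca1-Cre tumours and pre-tumoral spleens, with 95% intervals from limma. Slc7a7 in Aid-Cre tumours lies at -0.64, was chosen for it and has no interval; Slc7a8 in Mb1-Cre tumours lies at 1.18, and the intervals of Slc7a5 span more than 2 log2 units.

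Related pathways were read from lists of genes other than the members, and 0 genes of any list passed the limma test in any of the 9 comparisons. A further list held 33 measured amino acid transporters outside the Slc7 and Slc3 families, among them other Slc38 genes. Of these 33, 21 were above wild type for Aid-Cre, 16 for Mb1-Cre and 12 for Sca1-Cre tumours, and 14 for pre-tumoral spleens. Some, such as Slc38a4 at group means from 3.72 to 3.87, lay under the near-background level. Slc36a4, a carrier of proline and tryptophan, had a difference of 0.65 ± 0.18 in Sca1-Cre tumours (limma adjusted p = 0.198). Slc38a9, the lysosomal arginine sensor of mTORC1, was at -0.51 ± 0.16 in the same tumours (limma adjusted p = 0.246), and at 0.56 ± 0.15 in Aid-Cre relative to Sca1-Cre tumours (limma adjusted p = 0.131). Of the 9 other Slc7 and Slc3 genes, 8 were above wild type in Aid-Cre tumours, with a median difference of 0.04. Of these 9 genes, 5 had a mean under 4.72, the near-background level. Without wild-type replicate 1, 4 of the 9 were above wild type in Aid-Cre tumours, with a median difference of -0.003.

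The ATF4 list holds the genes that cells switch on when amino acids are short. Of 22 measured, 16 were above wild type for each of the Aid-Cre, Mb1-Cre and Sca1-Cre tumour groups, with median differences of 0.16, 0.12 and 0.15, and 7 in pre-tumoral spleens, with a median of -0.07. The all-gene medians lay within 0.01 of 0. In Aid-Cre tumours the count rests on replicate 2, without which 9 of the 22 were above wild type, with a median of -0.05. The pre-tumoral count was 12 without pre-tumoral replicate 3. In Aid-Cre tumours Atf4 itself was at 0.48 ± 0.18 (limma adjusted p = 0.502) and Trib3, a target that damps the response, at 0.85 ± 0.34 (limma adjusted p = 0.525). Without replicate 2 these were 0.29 and 0.36. Both had all Aid-Cre arrays above wild type, as did 3 of the 22 genes in all, and the share over all genes was not computed. Of the 10 glutathione and NRF2 genes, which use the cystine that Slc7a11 brings in, 8 were above wild type in Aid-Cre tumours and 10 in Mb1-Cre tumours, with a median of 0.44 in Mb1-Cre. The list mean split the Aid-Cre tumours, at 0.86 and 0.93 in replicates 1 and 2 and at -0.32 and -0.42 in replicates 3 and 4, and without either of the first 2 replicates 5 of the 10 genes were above wild type. The neutrophil markers split the same spleens, at 1.78 and 2.28 against -1.88 and -1.86, and so did the erythroid markers, at 1.01 and 1.16 against -2.04 and -0.88. Gsr, glutathione reductase, was at 1.14 ± 0.48 in Mb1-Cre tumours (limma adjusted p = 0.394). Neutrophil markers, relative to wild type, lay at 1.83 to 2.59 in Mb1-Cre tumours, against -1.01 to 0.98 in wild type, and their part in these values was not tested.

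Arginine that enters through Slc7a7, Slc7a1 or Slc7a2 is used by arginases, nitric oxide synthases and polyamine synthesis. Of 14 measured genes of these routes, the number above wild type was 9 for Aid-Cre, 10 for Mb1-Cre and 9 for Sca1-Cre tumours, and 5 for pre-tumoral spleens. The Aid-Cre count was 6 without Aid-Cre replicate 1, the Sca1-Cre count 6 without wild-type replicate 2, and the pre-tumoral count 8 without wild-type replicate 3. In Mb1-Cre tumours Arg2, the mitochondrial arginase, was at 0.85 ± 0.40 (limma adjusted p = 0.439) and Gatm, which makes the creatine precursor from arginine, at 1.09 ± 0.52 (limma adjusted p = 0.440). Nos2, the inducible nitric oxide synthase, was at 0.34 ± 0.16 in Aid-Cre tumours (limma adjusted p = 0.601). Of 30 genes through which mTORC1 senses amino acids, 21 were below wild type for Aid-Cre, 17 for Mb1-Cre and 15 for Sca1-Cre tumours. Nprl2, a subunit of the GATOR1 complex that restrains mTORC1, was at -0.66 ± 0.20 in Mb1-Cre tumours (limma adjusted p = 0.256), and Rraga, a Rag GTPase that recruits mTORC1 to the lysosome, at 0.47 ± 0.14 in Sca1-Cre tumours (limma adjusted p = 0.212).

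The genes whose levels ran most like those of Slc7a7 were taken from 12049 genes by Pearson's r, as a description. Over all 19 arrays these were Twf2 (r = 0.816), Tspan31 (0.802), Pon3 (0.797), Efcab14 (0.782) and Prkar2a (0.782). These r values include the Aid-Cre arrays on which Slc7a7 was chosen, so a low Aid-Cre level is part of the likeness. Twf2, an actin-binding protein, lay between 9.51 and 9.81 in Aid-Cre tumours, against 9.90 to 9.94 in wild type. The other 4 genes overlapped the wild type, as Pon3 did with 5.80 to 6.77 in Aid-Cre tumours against 6.35 to 6.62. Taken as deviations from the group means, the r of Twf2 with Slc7a7 was 0.205, and a different set led, with Tram2 (0.796), Gapdhs (0.705), Tmem176b (0.677), Fah (0.674) and Ubash3b (0.670).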

How the data were processed

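Total RNA of 19 whole spleens was hybridised to Affymetrix arrays, 1 array per labelled biological replicate. The authors deposited log2 intensities, and the submitters' processing notes name RMA and the R package oligo, without versions. RMA sets all arrays to a common distribution, so a shift of most genes would not show. Of 41345 probe sets, 23521 carried 1 symbol in the platform annotation, 1814 several and 16010 none. The probe set with the highest mean stood for each of 1082 genes with several, leaving 22180 genes. limma 3.58.1 (R 4.3.3) was fitted to group means over all 19 arrays, with 9 contrasts and 14 residual degrees of freedom, and tested on simulated data. Correlations used 100000 permutations in Python 3.11.15. The members, pathway lists and markers were chosen with earlier results of these data known. Beyond the members, named genes are among the 3 with the smallest p of their list in a contrast, or the 5 most like Slc7a7 among genes with a mean above the 40th percentile. Other filters, scalings, a covariate for sex read from expression, a replicate block and leaving out each array were tried. The number of arrays limits the precision.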

Additional observations from a re-analysis of the deposited data

Results flagged for a closer look

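Slc7a7 in Aid-Cre tumour replicate 4 was 6.80, apart from the other 3 Aid-Cre tumours, with a gap to the nearest of 0.878 of the group's range. Slc7a7 in Sca1-Cre tumour replicate 1 was 7.65, below the other 3 Sca1-Cre tumours by 0.891 of the range. These were the 2 outlying values among 30 pairs of group and gene checked, and chance gives about 1 in 20.

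Slc7a7 lay below the wild-type mean on every Aid-Cre array and above it on every array of the other HGAL groups. The Aid-Cre difference was -0.93 relative to Mb1-Cre tumours, -1.10 relative to Sca1-Cre tumours and -1.03 relative to pre-tumoral spleens, and these were not tested because the gene was chosen on them. Slc38a1 lay below the wild-type mean on every Mb1-Cre array and above it on every pre-tumoral array, a difference of -0.60 between the groups that was not tested.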

How the results depend on the processing

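No alternative made a member pass the threshold in any of the 9 comparisons or in the F-test: the counts of members called stayed at 0 in all 26 alternatives of the F-test and in the 19 to 29 alternatives of each comparison. The Slc7a7 values in Aid-Cre tumours are those the gene was chosen on, so that their direction is no sign of stability; they ranged from -0.75 to -0.53 relative to wild type, with the smallest size under the sex covariate. Leaving out 1 array at a time gave -0.75 to -0.55 relative to wild type, -0.97 to -0.88 relative to Mb1-Cre tumours and -1.25 to -1.05 relative to Sca1-Cre tumours. The direction turned in 2 small differences of Slc7a7: all tumours minus wild type ranged from -0.0679 (without wild-type replicate 3) to 0.133 when 1 array was left out, and Sca1-Cre tumours minus pre-tumoral spleens from -0.0830 (without pre-tumoral replicate 2) to 0.213. Slc7a8 in Mb1-Cre tumours minus wild type ranged from 0.95 to 1.40. The lowest value was that without both arrays on which the pancreas markers stood apart. Without Mb1-Cre replicate 2 alone it was 0.98. Filters on dim genes left 13308 and 13026 genes and removed Slc7a2 and Slc7a11. With the replicate number as a block, Slc7a7 in Aid-Cre tumours was -0.63 relative to wild type and Slc7a8 in Mb1-Cre tumours 1.30, and 0 members were called. Same-numbered arrays had a median correlation of deviations of -0.05, against 0.01 for other pairs. This gave no sign that the numbers pair the mice. With r from -0.53 to 0.41 among same-numbered arrays, it cannot exclude a pairing. The counts and medians over members and pathway lists in Aid-Cre tumours depend on replicate 2 as given above.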

Other observations

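Between Sca1-Cre tumours and the pre-tumoral spleens of the same genotype, 19 of 22 genes of the ATF4 amino acid response were higher in the tumours, with a median difference of 0.18 against -0.01 over all genes, and 0 passed the limma test. In the same comparison all 9 proliferation, 9 erythroid and 13 neutrophil markers were higher (medians 1.62, 1.32 and 0.81). All 11 B cell markers were lower (median -0.77). The part of cell mixture and proliferation in the ATF4 values was not tested. In pre-tumoral spleens Slc43a1, a carrier of branched-chain amino acids, was at -2.18 ± 1.01 relative to wild type, and Slc16a10, a carrier of aromatic amino acids, at -1.49 ± 0.69 (limma adjusted p = 0.884 for both). All 3 pre-tumoral spleens lay below all wild-type spleens for both genes, as for 4 of the 33 measured transporters outside the Slc7 and Slc3 families. The share of all genes apart below was not computed, and 8.35% of all genes had the pre-tumoral spleens apart above wild type. The erythroid marker mean was also lower on these 3 arrays, from -3.31 to -0.94, and its part in these values was not tested.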
